A study of Mus musculus with 6 samples.

Results

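The genes described here are the core and linker histone genes of choroid endothelial cells (ECs), which line the vessels behind the retinal pigment epithelium (RPE). Members were all gene symbols of the deposited tables that begin with Hist1h to Hist4h, the genes of the histone clusters, or with H2af, H1f or H3f, the variant histones. This gave 82 of the 22026 symbols listed, 68 of them cluster genes and 14 variant genes. The cells came from untreated 129/B6 mice at postnatal day 5 (P5) or 30 (P30), with 3 isolations per age, each a pool of eyes from several animals, male and female at P30. ECs were sorted for VE-Cadherin after an antibody had been injected into the living animal, so that the values are means over the sorted cells. P5 mice were anaesthetized by cooling and received a smaller antibody dose than P30 mice. This handling cannot be told apart from age. The values are FPKM, read fragments scaled to the length of the transcript and to the size of the library, which can be compared between genes because they are given per length. A difference is given as log2(FPKM + 1) at P30 minus P5, with its standard error (SE) from limma.

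Histones are the proteins around which DNA is wound in nucleosomes. Cluster histones (H1, H2A, H2B, H3 and H4) are made chiefly in S phase, when new DNA has to be packed, and their mRNAs end in a short stem-loop in place of a poly(A) tail. Variant histones such as H3.3, H2A.Z and macroH2A are made throughout the cell cycle from polyadenylated mRNAs and replace cluster histones at chosen places of the genome. The library kit selects poly(A) RNA, so a cluster gene is read here mainly through transcripts that carry a tail, which some cluster genes also make. Levels of cluster genes in these libraries are therefore no measure of how much histone was made.

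The stem-loop was searched for in the 300 bases of the mm9 genome after the longest annotated coding sequence, on the strand of the gene. These bases take in the stop codon. A single fixed pattern of stem and loop letters was used, so a gene without a match may hold a differing stem-loop. A match was found after 56 of the 66 cluster genes with an annotated coding sequence, starting 25 to 62 bases past that sequence. Of 12 such variant genes, 1 had a match, H2afx. Of 22380 coding genes searched, 58 (0.259%) had a match. Below are the forms found, shown because they are the feature that sets cluster mRNAs apart, with the stems in capitals and the loop in lower case.

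Hist1h1c, chr13:23831381-23831396, plus strand, the form of 36 cluster genes: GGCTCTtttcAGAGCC

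Hist1h4d, chr13:23673819-23673834, plus strand, the form of 8 cluster genes, all of them H4 genes: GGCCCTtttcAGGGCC

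Hist1h4i, chr13:22132835-22132850, minus strand, the form of 2 H4 genes: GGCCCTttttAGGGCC

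H2afx, chr9:44143323-44143338, plus strand, the only variant with a stem-loop: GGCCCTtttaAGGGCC

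A further 9 cluster genes (of the H1, H2A, H2B and H3 types) had the first form with another last base in the loop, and 1 H2A gene (Hist2h2ac) had yet another loop. In Hist1h1c the annotated transcript ran 839 bases past the stem-loop and in Hist3h2a 1487 bases, and each ended at a poly(A) signal. In Hist1h4d it stopped 25 bases past the stem-loop, without such a signal.

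Summed FPKM of RPE, photoreceptor, pericyte and smooth muscle, and fibroblast markers was higher in every P30 isolation than in any P5 isolation. The same held for endothelial markers, while haematopoietic sums overlapped between the ages. The paper described contaminating cells as present at very low levels. The summed FPKM of 7 RPE markers was 65.5 to 144 at P5 and 495 to 3796 at P30, and all 7 lay above every P5 isolation at P30. That of 6 photoreceptor markers was 2.21 to 7.25 at P5 and 41.0 to 349 at P30, that of 9 pericyte and smooth muscle markers 517 to 1798 and 2066 to 6739, and that of 5 fibroblast markers 405 to 832 and 1405 to 3175. Of 6 haematopoietic markers the sum was 498 to 754 at P5 and 313 to 793 at P30, and no marker of these lists was at 0 in every sample. The 8 endothelial markers summed to 18050 to 18520 at P5 and 24630 to 29970 at P30. The part of these cells in the differences below was not tested, and fewer cells making a histone cannot be told apart from less of its mRNA per cell.

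Most cluster genes were listed at low FPKM at both ages, and more of them were listed at 0 at P30. The median over the 68 cluster genes was 1.86, 2.64 and 2.12 FPKM in the P5 isolations and 0, 0.205 and 0.630 in the P30 isolations, here and below in the order of their replicate numbers. At P5, 7, 6 and 10 of the 68 were listed at 0, and at P30, 49, 30 and 31. Thus every P30 isolation had more cluster genes at 0 than any P5 isolation, and P30 replicate 1 had the most. Over all 22026 genes the share at 0 was 34.7% to 36.0% at P5 and 33.4% to 37.3% at P30, and it was also highest in P30 replicate 1.

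The same was seen among genes of low level alone. Of the cluster genes, 56 had a mean over all isolations above 0 and under 5 FPKM, and 10.7%, 8.93% and 16.1% of them were at 0 at P5, against 83.9%, 51.8% and 51.8% at P30. Of the 3624 other genes in that range, 35.7%, 41.5% and 42.8% were at 0 at P5 and 47.8%, 27.7% and 43.9% at P30. In 25 of the 56 cluster genes every P5 isolation was above every P30 isolation, beside 10.1% of the 3624 other genes. No counts were used here, so a gene listed at 0 may have had reads that were not assigned to it.

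**Figure D1:**
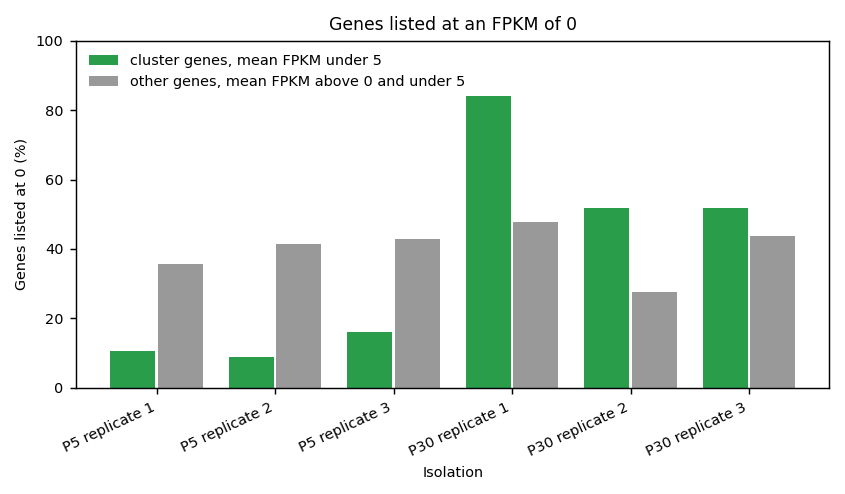
Percentage of genes listed at an FPKM of 0 (vertical axis) in each of the 6 isolations (horizontal axis), for the 56 cluster histone genes with a mean above 0 and under 5 FPKM (green) and the 3624 other genes in that range (grey). The green bars lie between 8.93% and 16.1% at P5 and between 51.8% and 83.9% at P30.

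Over all 67 cluster genes above 0 in any sample, the P5 isolations were all above the P30 isolations in 26, beside 28.0% of the 15773 genes above 0 in any sample, and the P30 isolations were all above in 2, beside 19.3%. The mean was lower at P30 in 56 and higher in 11. The median difference was -0.83 over these 67 genes and -0.05 over the 15773. Many of these genes share sequence, so they are not 67 separate measurements. In 26 of the cluster genes over 50% of the 50-base stretches of the annotated transcripts also occurred in another member, and in 4 of them (Hist1h2ao, Hist1h2ap, Hist2h2aa1 and Hist2h2aa2) all did. Reads from such copies cannot be assigned to 1 gene with certainty.

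**Figure D2:**
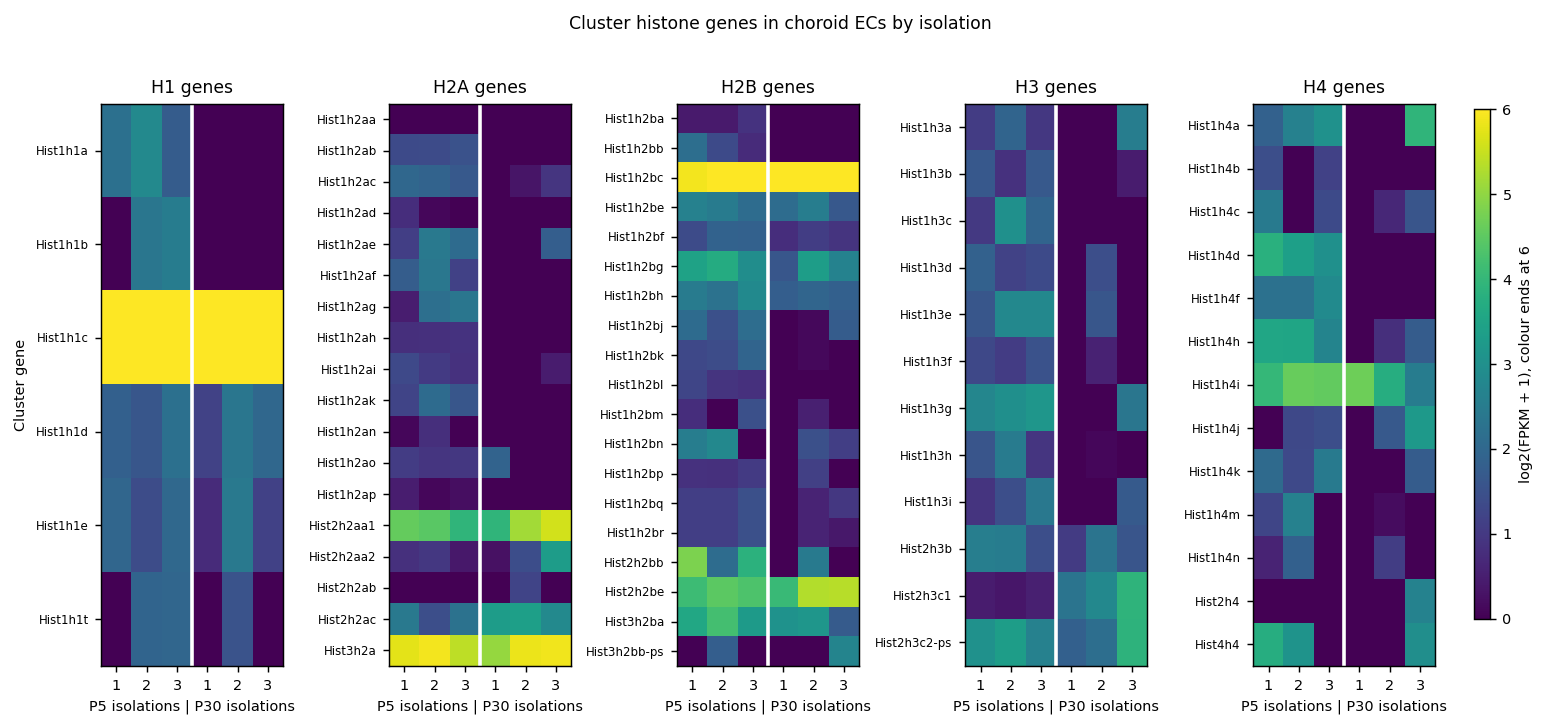
Level of each of the 68 cluster genes (rows, by histone type) in the 3 P5 and 3 P30 isolations (columns, the white line parts the ages), as log2(FPKM + 1) in colour, with all values over 6 drawn in the last colour. Hist1h1c and Hist1h2bc were high throughout, while 18 genes, among them Hist1h2aa, which was at 0 in every isolation, were at 0 in all P30 isolations. Of all 22026 genes, 6721 were at 0 in all P30 isolations.

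By histone type, the genes at 0 in every P30 isolation were 2 of 6 for H1, 9 of 18 for H2A, 3 of 19 for H2B, 1 of 12 for H3 and 3 of 13 for H4. Over all 22026 genes, of which 15773 were above 0 in any sample, 6721 were at 0 in every P30 isolation. Of the 18 cluster genes, 13 were above 0 in every P5 isolation, beside 132 of all 22026 genes. No cluster gene was at 0 in every P5 isolation and above 0 in every P30 isolation. Only 89 of all 22026 genes were, so the absence of this among 68 genes says little. The linker histone gene Hist1h1a, made in dividing cells, was at 3.63, 6.07 and 2.36 FPKM at P5 and at 0 in all P30 isolations. Hist1h1b, another S phase linker histone, was at 0, 4.09 and 4.77 at P5 and at 0 at P30. The H2A gene Hist1h2ak was at 1.33, 3.25 and 2.03 at P5, the H2B gene Hist1h2bb at 3.53, 1.55 and 0.66, and the H3 gene Hist1h3c at 0.98, 7.00 and 2.79, and each was at 0 in all P30 isolations. These genes were named after their values were seen.

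The summed FPKM of the 12 H3 cluster genes was 31.6, 46.3 and 35.7 at P5 and 7.59, 17.8 and 41.3 at P30. That of the 13 H4 cluster genes was 68.7, 70.5 and 57.6 at P5 and 24.5, 17.2 and 46.2 at P30. The H4 sums of the ages did not overlap, while the H3 sum of P30 replicate 3 lay among those of P5. P30 replicate 3 was the highest P30 isolation for H2A, H2B, H3 and H4 sums, but the lowest for H1.

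The Hist1 and Hist2 genes are given apart here. The Hist1 cluster lies on chromosome 13, Hist2 on chromosome 3, Hist3 on chromosome 11 and the lone Hist4h4 on chromosome 6. Of the 53 Hist1 genes above 0 in any sample, the mean was lower at P30 in 50, the P5 isolations were all above those of P30 in 25, beside 28.0% of all genes above 0 in any sample, and the reverse occurred in none, beside 19.3%. Of the 10 Hist2 genes, the mean was lower at P30 in 3 and higher in 7, the P5 isolations were all above in none and the P30 isolations in 2, a share near that of all genes. The median difference was -0.92 over the Hist1 genes and 0.58 over the Hist2 genes. Of the 7 Hist2 genes, Hist2h2ab and Hist2h4 were above 0 in a single P30 isolation each. Hist2h2aa1 and Hist2h2aa2 are copies, and a Hist2h3c1 transcript runs over Hist2h2aa1. The summed FPKM of the Hist2 genes was 84.4, 62.4 and 58.25 at P5 and 46.6, 104 and 137 at P30. Thus P30 replicate 1 lay below every P5 isolation and the other P30 isolations above. The difference between the clusters was not tested.

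The summed FPKM of all cluster genes overlapped between the ages. It was 464, 573 and 515 FPKM at P5 and 419, 593 and 512 at P30. Hist1h1c and Hist1h2bc together held 35.4%, 43.8% and 49.2% of it at P5 and 70.4%, 62.4% and 45.5% at P30. Without them the sum was 300, 322 and 262 at P5 and 124, 223 and 279 at P30, and the ages overlapped through P30 replicate 3.

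Differences were tested with limma over the 12910 genes with a mean of at least 2.5 FPKM over all 6 isolations. A gene was called at an adjusted p (Benjamini-Hochberg, over all genes tested) under 0.01 and at least a 2-fold difference in mean FPKM + 1. Only 22 of the 68 cluster genes were tested, and 1 was called higher at P5, beside 5.62% of all genes tested, and 1 higher at P30, beside 5.75%. The P5 isolations were all above those of P30 in 5 of the 22, beside 32.3% of the genes tested, and the P30 isolations in 2, beside 21.6%. These shares are near or under those of all genes. The median difference over the 22 was -0.60, against -0.09 over all genes tested. Without P30 replicate 1, 26 cluster genes passed the minimum level, and their median was -0.27.

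The cluster gene called higher at P5 was Hist1h4d (chr13:23673467-23673859 of mm9), which encodes H4. It was at 12.98, 9.44 and 7.03 FPKM at P5 and at 0 in all P30 isolations (adjusted p = 0.00149 from limma). Its call was lost when any P5 isolation was left out, with adjusted p of 0.0104 to 0.0174. In 32.3% of its 50-base stretches it matched another member.

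The cluster gene called higher at P30 was Hist2h3c1, an H3 gene of chromosome 3. It was at 0.38, 0.29 and 0.45 FPKM at P5 and at 3.97, 5.95 and 13.95 at P30, with no overlap (log2 difference 2.55, SE 0.53, adjusted p = 0.00951 from limma). The call was lost with the replicate number as a block (adjusted p = 0.0250) and without P5 replicate 1, 2 or 3 or P30 replicate 2 or 3 (adjusted p from 0.0167 to 0.0384). In the mm9 annotation its longest transcript runs over the Hist2h2aa1 gene, so reads of the H2A gene can fall within it.

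The cluster genes with the highest levels did not pass the limits. Hist1h1c (chr13:23830676-23832235), a linker histone gene that is also used in cells that do not divide, was at 106, 141 and 136 FPKM at P5 and at 216, 293 and 137 at P30. P30 replicate 3 lay among the P5 isolations (log2 difference 0.70, SE 0.26, adjusted p = 0.0744 from limma). Hist1h2bc (chr13:23776068-23784357), an H2B gene, was at 58.5, 110 and 117 FPKM at P5 and at 79.1, 76.7 and 95.5 at P30, so that the ages overlapped (log2 difference -0.13, SE 0.26, adjusted p = 0.726). Hist3h2a (chr11:58768187-58770176), an H2A gene, was at 53.0, 58.5 and 41.0 at P5 and at 32.1, 56.0 and 57.4 at P30 (log2 difference -0.10, SE 0.25, adjusted p = 0.782). The sign of the differences of Hist1h2bc and Hist3h2a turned when some isolations were left out.

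Of the Hist2 cluster, 3 genes for H2A or H2B were among the 10 cluster genes of highest level. Hist2h2aa1, an H2A gene with an identical copy (Hist2h2aa2), was at 23.0, 20.9 and 14.1 FPKM at P5 and at 14.1, 34.8 and 47.2 at P30 (log2 difference 0.57, SE 0.42, adjusted p = 0.321). Hist2h2be, an H2B gene, was at 16.4, 21.4 and 19.1 at P5 and at 15.7, 38.9 and 40.03 at P30 (log2 difference 0.60, SE 0.35, adjusted p = 0.219). In both, P30 replicate 1 was the lowest isolation and the other P30 isolations were the highest. Without P30 replicate 1, Hist2h2be was called higher at P30 (log2 difference 1.03, adjusted p = 0.00601). Hist2h2bb was at 27.2, 3.32 and 13.5 at P5 and at 0, 4.54 and 0 at P30, overlapping through P5 replicate 2 (adjusted p = 0.0469).

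The other cluster genes among the 10 of highest level were Hist1h4i, Hist3h2ba, Hist1h2bg and Hist2h3c2-ps. Hist1h4i, an H4 gene, was at 14.97, 23.5 and 22.6 FPKM at P5 and at 24.5, 12.4 and 4.73 at P30 (adjusted p = 0.284). Hist3h2ba, an H2B gene beside Hist3h2a, was at 11.1, 17.5 and 8.60 at P5 and at 7.31, 7.85 and 2.29 at P30, with no overlap (log2 difference -1.05, SE 0.46, adjusted p = 0.110). Hist1h2bg, also an H2B gene, was at 9.92, 11.96 and 6.62 at P5 and at 2.05, 9.16 and 5.31 at P30 (adjusted p = 0.214). The pseudogene Hist2h3c2-ps was at 7.25, 9.10 and 5.18 at P5 and at 2.57, 3.52 and 13.8 at P30 (adjusted p = 0.631).

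Cluster genes with an annotated transcript that ended at a poly(A) signal (AATAAA or ATTAAA in the last 40 bases) stood higher than the others. There were 17 of them among the 66 with a coding sequence, whereas 71.6% of all coding genes had such an end. Their median FPKM was 4.38 at P5 and 3.44 at P30, against 2.28 and 0.377 for the other 49. A mean over all isolations of 10 FPKM or more was reached by 5 of the 17 (Hist1h1c, Hist1h2bc, Hist3h2a, Hist2h2be and Hist1h4i) and by 1 of the 49 (Hist2h2aa1). All 18 cluster genes at 0 throughout P30 belonged to the 49. The median share of 50-base stretches found in another member was 29.7% in the 17 and 49.7% in the 49, and its part in these levels was not tested.

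Cluster promoters had letters in common that the choice of members did not use. RefSeq promoters (GRCm38.p6, 250 bases before to 50 after the start) were matched for 61 cluster and 11 variant genes. Shares are of genes, each counted once if any of its promoters held the letters. CCAAT, on either strand, was found for 85.2% of these cluster genes against 41.1% of all 27025 genes with a promoter. It was found for every H1, H2A, H2B and H3 gene matched but for only 3 of 12 H4 genes. TATAAA was in 57.4% against 15.7% of all, and TATATA, which can overlap it, in 27.9% against 6.66%. The octamer ATTTGCAT, known from H2B promoters, was found for 7 of 16 H2B and 7 of 17 H2A genes. It was found for none of the H1, H3 and H4 genes, and for 1.97% of all. H2A and H2B genes often lie head to head and share a promoter, so these are not separate cases. CACGTG was in none of the cluster promoters and in 8.09% of all.

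The 150 bases before the start are given for 4 genes that differ in level and direction, 5′ to 3′, with these motifs on either strand in capitals. They show the cluster linker histone gene of highest level, an H2B gene, the H4 gene called higher at P5, and the H3.3 gene of highest level.

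Hist1h1c, chr13:23738657-23738806, plus strand: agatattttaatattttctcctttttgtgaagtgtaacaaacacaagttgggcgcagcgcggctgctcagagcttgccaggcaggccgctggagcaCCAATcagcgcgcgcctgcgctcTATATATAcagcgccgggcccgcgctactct

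Hist1h2bg, chr13:23571250-23571399, plus strand: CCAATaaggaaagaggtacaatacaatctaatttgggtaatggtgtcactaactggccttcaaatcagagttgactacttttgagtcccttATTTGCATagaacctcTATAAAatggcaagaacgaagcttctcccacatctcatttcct

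Hist1h4d, chr13:23581418-23581567, plus strand: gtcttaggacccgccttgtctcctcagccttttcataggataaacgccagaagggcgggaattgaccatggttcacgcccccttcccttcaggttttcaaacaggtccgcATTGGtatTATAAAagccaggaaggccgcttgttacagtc

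H3f3b, chr11:116024505-116024654, minus strand: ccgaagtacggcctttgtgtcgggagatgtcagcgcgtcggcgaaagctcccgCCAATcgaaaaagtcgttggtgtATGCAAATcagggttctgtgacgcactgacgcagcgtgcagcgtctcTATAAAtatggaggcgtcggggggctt

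H3f3b was the only variant gene whose promoter held the octamer or TATAAA, of 11 searched.

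Variant histones stood at far higher FPKM than cluster genes, and 9 of the 11 tested were lower at P30 in every isolation, beside 32.3% of the genes tested. The summed FPKM of the 14 variant genes was 3866, 4560 and 4054 at P5 and 3631, 4640 and 2981 at P30, and these sums overlapped. Of the 11 tested, 2 were called higher at P5 (H1f0 and H1fx), beside 5.62% of all genes, and none higher at P30, beside 5.75%. With no limit on the fold, 5 of the 11 passed an adjusted p of 0.01 in the direction of P5 (H1f0, H1fx, H2afx, H2afy and H3f3a), beside 10.2% of all genes. The median difference over the 11 was -0.82, against -0.09 over all genes tested.

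**Figure D3:**
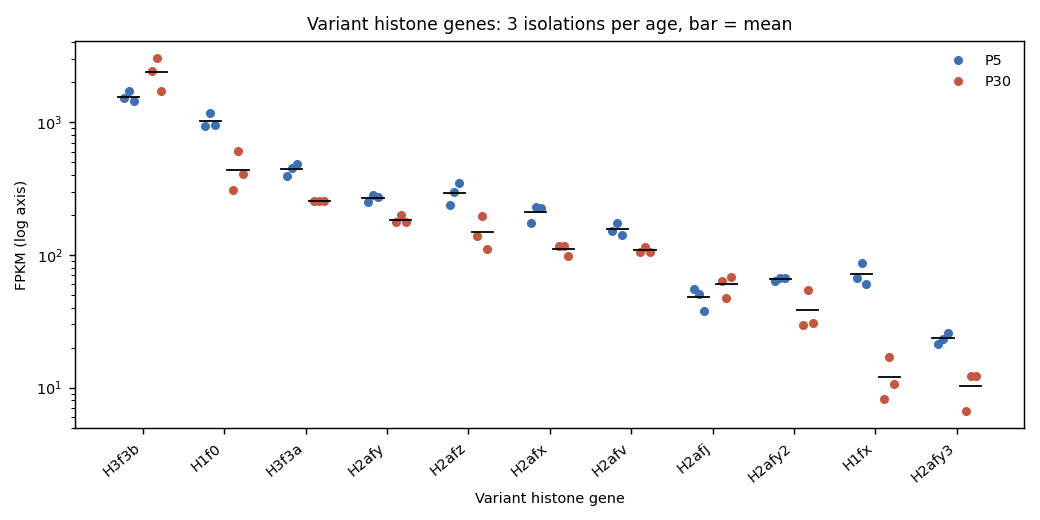
FPKM (vertical axis, log scale) of the 11 tested variant histone genes (horizontal axis, in order of mean level) in the 3 P5 isolations (blue) and the 3 P30 isolations (red), with a bar at each mean. All P30 points lie below all P5 points except in H3f3b and H2afj.

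The linker histone variants had the largest differences. H1f0 encodes H1.0, a linker histone known from cells that have stopped dividing, although the mm9 gene models used here list it as a pseudogene. It was at 939, 1178 and 959 FPKM at P5 and at 308, 604 and 406 at P30, so that it was lower, not higher, in every P30 isolation (log2 difference -1.27, SE 0.23, adjusted p = 0.00595 from limma). Its call was lost without P5 replicate 1, 2 or 3 or P30 replicate 3, with adjusted p of 0.0163 to 0.0287. H1fx, which encodes H1.10, was at 66.8, 86.5 and 60.7 at P5 and at 8.26, 16.9 and 10.7 at P30 (log2 difference -2.52, SE 0.27, adjusted p = 6.6e-04). H1fx was called higher at P5 whichever isolation was left out. Both genes had their P30 maximum in replicate 2, as had Hist1h1c and H3f3b. That isolation had the highest sums of pericyte and smooth muscle markers, of fibroblast markers and of all genes. Its endothelial sum was the lowest at P30. The part of these traits in the levels was not tested.

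Both genes for H3.3, the H3 variant laid down outside S phase, were among the histone genes of highest level, and neither was called. H3f3a (chr1:182730963-182744074 of mm9) was at 392, 453 and 487 FPKM at P5 and at 254, 255 and 253 at P30 (log2 difference -0.80, SE 0.10, adjusted p = 0.00152). The difference was under 2-fold, and H3f3a was therefore not called. H3f3b (chr11:115883226-115889276) was at 1517, 1716 and 1434 at P5 and at 2423, 3023 and 1709 at P30. The 2 ages of H3f3b overlapped by P30 replicate 3 and P5 replicate 2 alone (log2 difference 0.58, SE 0.20, adjusted p = 0.0592). With quantile normalization the difference of H3f3b was 0.15 (adjusted p = 0.532). The ratio of H3f3b to H3f3a was 3.88, 3.78 and 2.95 at P5 and 9.53, 11.9 and 6.77 at P30, with no overlap. This ratio was chosen after the values had been seen and was not tested.

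Variants of H2A had smaller differences than H1fx. H2afz, which encodes H2A.Z, found at gene starts, was at 236, 297 and 346 FPKM at P5 and at 138, 196 and 110 at P30 (log2 difference -1.003, SE 0.23, adjusted p = 0.0132), and its paralog H2afv at 152, 174 and 140 and at 106, 114 and 105 (log2 difference -0.51, SE 0.11, adjusted p = 0.0117). The ages did not overlap in either. H2afx, which marks DNA breaks when phosphorylated and has the stem-loop shown above, was at 173, 229 and 224 at P5 and at 117, 117 and 97.5 at P30 (log2 difference -0.91, SE 0.14, adjusted p = 0.00315), just under the 2-fold limit. Without P30 replicate 2, H2afz was called (log2 difference -1.23, adjusted p = 0.00581), and without P5 replicate 1, H2afx was (log2 difference -1.04, adjusted p = 0.00440).

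Of the macroH2A genes, whose large proteins are known from silent chromatin, none was called. H2afy, for macroH2A1, was at 249.1, 284 and 271 FPKM at P5 and at 176, 199 and 178 at P30 (log2 difference -0.54, SE 0.10, adjusted p = 0.00607), which is under 2-fold. H2afy2, for macroH2A2, was at 63.5, 67.1 and 66.6 at P5 and at 29.5, 54.7 and 30.8 at P30 (log2 difference -0.82, SE 0.23, adjusted p = 0.0304). Without P30 replicate 2, H2afy2 was called (log2 difference -1.10, adjusted p = 0.00205). H2afy3, annotated as a pseudogene within the Pvt1 locus, was at 21.4, 23.2 and 25.9 at P5 and at 6.69, 12.1 and 12.2 at P30 (log2 difference -1.15, SE 0.27, adjusted p = 0.0137). H2afj, an H2A variant gene, was at 54.8, 50.7 and 37.7 at P5 and at 63.8, 47.5 and 68.5 at P30, where the ages overlapped (log2 difference 0.32, SE 0.20, adjusted p = 0.235).

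**Figure D4:**
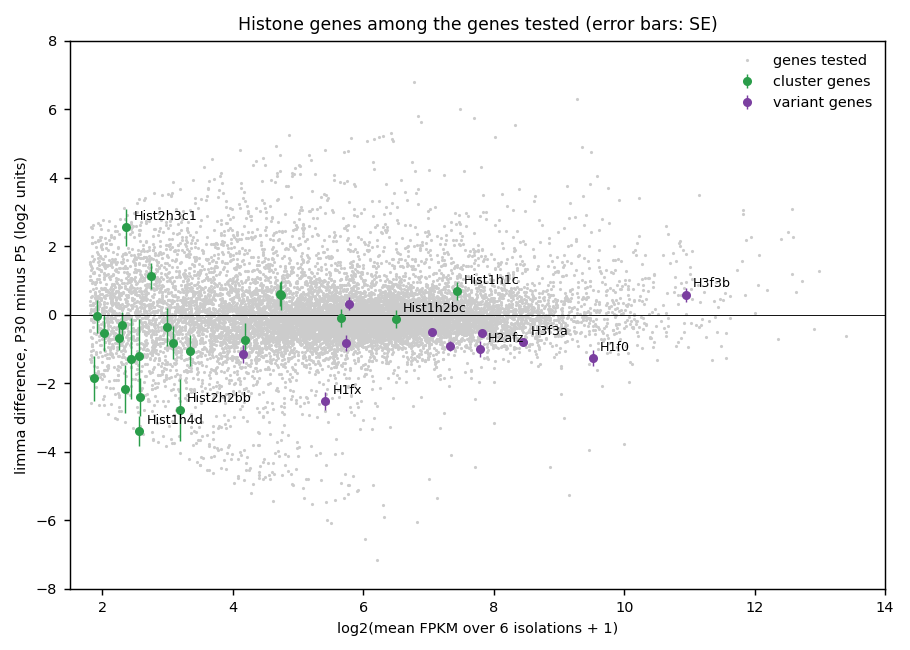
Difference between ages (vertical axis, limma, P30 minus P5, in log2 units) against the log2 of the mean FPKM + 1 over 6 isolations (horizontal axis) for the 12910 genes tested (grey), with the 22 cluster genes (green) and the 11 variant genes (purple) tested, error bars giving the SE. Variant genes sit to the right and mostly between 0 and -1.27, with H1fx at -2.52, while most cluster genes sit at the left.

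The share of a histone family's FPKM that came from variant genes moved with age for the linker histones. Variant genes held 89.8%, 88.9% and 87.0% of the H1 FPKM at P5 and 59.2%, 67.2% and 74.7% at P30, as H1f0 was lower and Hist1h1c mostly higher at P30. For H3 the share was 97.9% to 98.4% at P5 and 97.9% to 99.7% at P30, and for H2A 90.9% to 93.5% and 83.0% to 91.6%, so that the ages overlapped. These are shares of FPKM in poly(A) libraries and not of histone protein.

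Histone genes known from germ cells were at under 3 FPKM in every isolation. Of the 6 found in the tables, Hist1h2aa, H1fnt and H2afb1 were at 0 in every isolation. Hist1h1t was at 0, 2.80 and 2.97 FPKM at P5 and at 0, 1.91 and 0 at P30. H1foo, an oocyte linker histone gene, was at 1.28, 1.71 and 2.24 at P5 and at 0, 2.05 and 1.09 at P30. Hist1h2ba reached at most 0.83, and none of the 6 was tested.

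Genes that make and trim cluster histone mRNA were only in part lower at P30. Of 12 genes in this list, all were tested, 3 were called higher at P5 and none higher at P30, with a median difference of -0.48. Of all genes tested, 5.62% were called higher at P5 and 5.75% higher at P30, with a median of -0.09. Eri1, an exonuclease that binds the stem-loop, was at 48.4, 64.6 and 70.2 FPKM at P5 and at 19.9, 18.2 and 20.0 at P30 (log2 difference -1.59, SE 0.18, adjusted p = 7.5e-04). Cpsf2, a subunit of the cleavage complex, had a difference of -1.07 (SE 0.15, adjusted p = 0.00200) and Cstf2, a cleavage factor, of -1.12 (SE 0.16, adjusted p = 0.00216). Slbp, whose protein binds the stem-loop and carries the mRNA through its life, was at 123, 145 and 167 at P5 and at 103, 146 and 110 at P30, and the ages overlapped (log2 difference -0.28, SE 0.17, adjusted p = 0.234). Srrt had -0.54 (SE 0.13, adjusted p = 0.0184) and Sympk, a scaffold of the cleavage complex, 0.07 (SE 0.09, adjusted p = 0.566), which turned to -0.10 when samples were scaled to equal summed FPKM. Without P5 replicate 2, P5 replicate 3 or P30 replicate 1, 1 of the 12 was called.

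Genes that bring new histones to replicated DNA included larger differences. Of 11 such genes tested, 5 were called higher at P5, beside 5.62% of all genes, and none higher at P30, beside 5.75%, with a median difference of -0.96. Asf1b, an H3 and H4 chaperone of dividing cells, was at 35.8, 37.4 and 48.7 FPKM at P5 and at 0, 1.21 and 3.19 at P30 (log2 difference -4.30, SE 0.51, adjusted p = 9.9e-04). Its paralog Asf1a had a difference of -0.70 (SE 0.14, adjusted p = 0.00748) and was not called. Chaf1a and Chaf1b, subunits of the chromatin assembly factor CAF-1, had -2.75 (SE 0.24, adjusted p = 3.1e-04) and -2.85 (SE 0.22, adjusted p = 2.2e-04). Mcm2, a helicase subunit that also holds histones, had -1.93 (SE 0.15, adjusted p = 2.5e-04). It is also in the S phase list below, so its call counts in both lists. Tonsl, a reader of new H4, had -2.35 (SE 0.32, adjusted p = 0.00177). Rbbp4 and Rbbp7, histone-binding proteins found in many complexes, and Nasp, a chaperone of free H3, were the genes of highest level among those not called. They had differences of -0.57, -0.45 and -0.75 (adjusted p = 0.00948, 0.0990 and 0.0381).

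Chaperones and remodellers of variant histones mostly did not pass the limits. Of 16 found and tested, 2 were called higher at P5, beside 5.62% of all genes, and none higher at P30, beside 5.75%, with a median difference of -0.36. The 2 called were the centromeric H3 variant Cenpa, at 91.6, 135 and 143 FPKM at P5 and at 25.6, 18.1 and 39.8 at P30 (log2 difference -2.15, SE 0.30, adjusted p = 0.00184), and its chaperone Hjurp (log2 difference -1.33, SE 0.18, adjusted p = 0.00166). Both calls were lost without P5 replicate 2 or P5 replicate 3. Of genes known to act in placing H3.3, 3 chosen after their values were seen did not pass. Hira had -0.56 (adjusted p = 0.0354), Daxx 0.22 (adjusted p = 0.164) and Atrx -0.65 (adjusted p = 0.0189). Of the genes of highest level, Dek had -0.94 (adjusted p = 0.00539, under 2-fold), Ssrp1, of the FACT complex, -0.46 (adjusted p = 0.0136), and Anp32e, which removes H2A.Z, -0.38 (adjusted p = 0.0275).

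**Figure D5:**
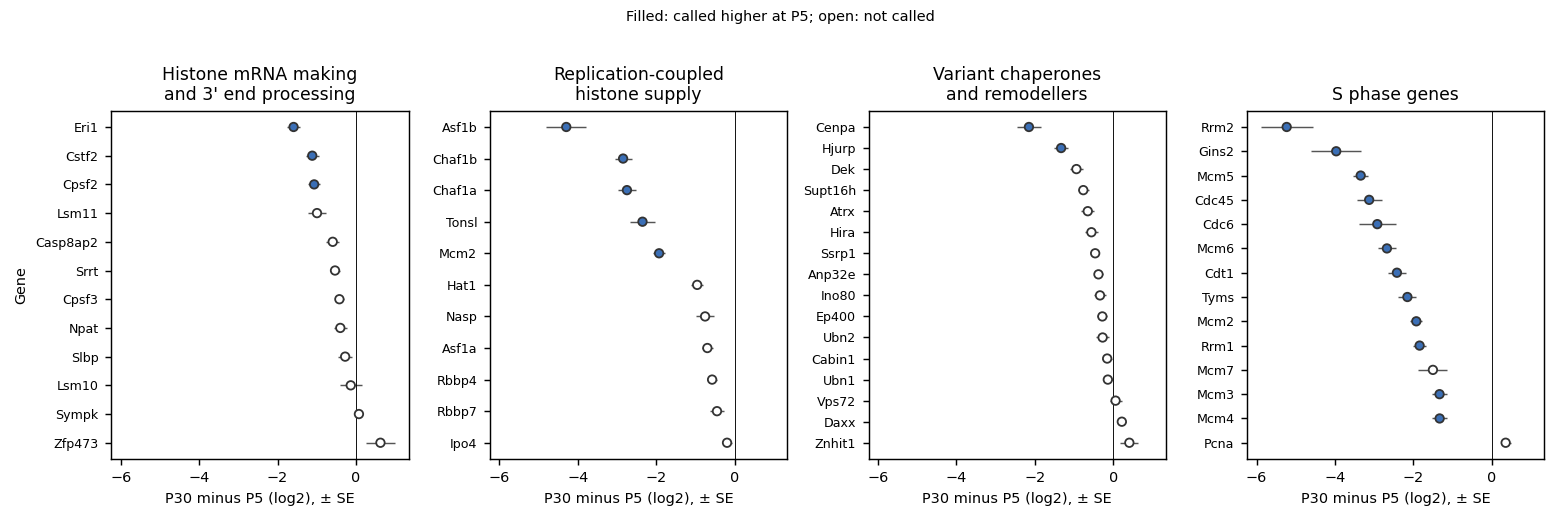
Difference between ages (horizontal axis, limma, P30 minus P5, log2 units, bars give the SE) for each tested gene (vertical axis) of 4 lists, filled where the gene was called higher at P5. The 3, 5, 2 and 12 filled points are those called in the lists from left to right, and no gene was called higher at P30.

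For comparison, of 14 genes of DNA replication and nucleotide supply, which act in S phase as the cluster histones do, 12 were called higher at P5, beside 5.62% of all genes, and none higher at P30, beside 5.75%. Their median difference was -2.29. This median can be set beside -0.60 for the 22 cluster genes tested (-0.27 over the 26 tested without P30 replicate 1) and -0.82 for the variant genes tested. The lists are not alike. Over the 67 cluster genes above 0 in any sample the median was -0.83. Of the 68 cluster genes, 51 had a mean under 5 FPKM at both ages, where the added 1 shrinks a difference. Most of the 51 were not tested. With 0.1 added in place of 1, the median over the 22 tested was -0.77. That of the S phase list was not taken at this setting. The lowest mean of an S phase gene was 5.945 FPKM (Cdc6). Cluster genes are also read here mainly through transcripts with a tail. The difference between lists was not tested. Pcna, the sliding clamp of replication, was at 264, 312 and 334 FPKM at P5 and at 368, 431 and 362 at P30 (log2 difference 0.35, SE 0.12, adjusted p = 0.0594). Mcm7, the other gene of that list not called, had -1.50 (adjusted p = 0.0173).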

How the data were processed

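RNA of sorted choroid ECs was sequenced on the HiSeq2000 platform from 3 isolations per age. Per the labels and methods, the authors mapped the reads on mm9 (TopHat) and deposited FPKM values made by Cufflinks, corrected for GC content and scaled by the upper quartile. Base calls came from CASAVA 1.8.2. Other versions and the gene annotation are not given in the sources used here. The deposited FPKM hold no counts. Depth is unknown and no counting error is given.

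Differences were fitted to log2(FPKM + 1) with limma 3.58.1 in R 4.3.3 (lmFit, eBayes with trend, no block), over genes with a mean of at least 2.5 FPKM over the 6 samples. Python 3.11.15, pandas 2.3.3 and numpy 2.4.6 served for the rest. With 3 isolations per age, no test rests on more than this spread. The fit was tested on simulated data of 12910 genes. It called 140 of 200 changed genes and 0 of the unchanged ones, so a true change can go uncalled. The planted changes were all well above the 2-fold limit, and the noise was normal, without values piled up at 0. The share called is therefore no measure of how many smaller changes were caught. Gene models are those of GENCODE for mm9 (NCBIM37), matched by symbol for 81 of 82 members. P30 and P5 samples of the same number did not deviate together (correlations of -0.0857 to -0.0228).

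The members and lists were chosen with earlier results of these data known. Named were the tested variant genes, the 10 tested cluster genes of highest mean, called cluster genes, in each list of other genes those called or among the 3 of highest mean (S phase genes by counts), and germ cell histones above 0. Asf1a, Hira, Daxx, Atrx, Pcna, Mcm7 and the low cluster genes at 0 throughout P30 fall outside this rule and were chosen after their values were seen.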

Additional observations from a re-analysis of the deposited data

How the results depend on the processing

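The fit was repeated with other pseudocounts, other minimum levels, no trend, other scalings, a replicate block, other limits, and each isolation left out in turn. Over 54 single genes, 888 of 964 repeats kept direction and side of the limits, 43 lost and 27 gained a call, and 6 changed sign, none of them in a called gene. Cluster genes called higher at P5 numbered 1 in the report, 6 without a minimum level, 0 at a minimum mean of 10 FPKM, 2 with equal summed FPKM, 4 at an adjusted p under 0.05 with no fold limit, and 0 to 3 with an isolation left out. Those called higher at P30 numbered 1, but 0 with a mean of 5 in at least 1 age, with a minimum mean of 10, with quantile normalization and with the replicate block, and 0 to 2 with an isolation left out. Variant genes called higher at P5 numbered 2, but 1 without trend, 5 with equal summed FPKM, 9 at an adjusted p under 0.05 with no fold limit, and 1 to 4 with an isolation left out. Equal summed FPKM moved the median of all genes from -0.09 to -0.26. The median over cluster genes turned from -0.60 to 0.24 at a minimum mean of 10 FPKM, which left 6 cluster genes. Over all genes, 2787 in place of 726 were called higher at P5 and 2010 in place of 742 at P30 at an adjusted p under 0.05 with no fold limit, and 296 to 750 and 395 to 856 with an isolation left out. With that limit, 7, 9 and 8 genes were called in the lists of mRNA processing, histone supply and variant chaperones, and 1 to 3 and 0 to 3 in the first and last with an isolation left out. When isolations were left out, the difference ran over 0 in Hist1h2bc (-0.44 to 0.054, with 0.0076 in between), Hist3h2a (-0.24 to 0.17, with 0.0091 in between) and Hist2h3c2-ps (-0.997 to 0.031), and in Sympk (-0.095) with equal summed FPKM. The replicate block, with pairs taken from the numbers in the sample labels, gave no positive pairing and changed no other call among the histone genes. The count of cluster genes whose P5 isolations all lay above those of P30, repeated after seeing the data, was 26, and 28 to 33 with an isolation left out. Leaving out an isolation cannot lower this count, so these values do not show how firm it is. Levels under 5 FPKM, where most cluster genes lie, limit what could be seen.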
